A study of Homo sapiens with 3 samples.

Results

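Antisense long noncoding RNA (lncRNA) genes were taken as the genes of biotype lncRNA whose symbol ends in -AS and digits, and 1814 of the 61193 genes joined to the annotation met this rule. The gene whose symbol precedes -AS, here called the partner, was found for 1793 of them, and 1778 of these pairs had a protein-coding partner. The 21 others have no gene of that name, among them antisense genes named after a whole HOX cluster. Because several antisense genes can share a partner, the 1793 pairs rest on 1629 distinct partners, and 132 partners have more than 1 antisense gene.

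Gene expression was measured in HEK293T cells, a line derived from human embryonic kidney that carries the SV40 large T antigen, grown without any treatment and collected 1 day after seeding as 3 biological replicates of 1 condition. The libraries were primed at the poly(A) tail by a QuantSeq 3′ kit, so reads come from near the 3′ end of a transcript. Genomic DNA is the molecule named in the labels, but the methods state that total RNA was extracted, and the libraries are taken as RNA-seq. With 1 condition there are no groups to compare, and an exact sign-flip test over 3 replicates cannot go below p = 0.25, so values are given as means ± SD (n = 3) with no test.

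An antisense lncRNA is transcribed from the strand opposite to another gene, often from a promoter shared with it or from within it. Such RNAs are known to act at their own locus, for example by recruiting chromatin complexes or by interfering with transcription, or elsewhere in the cell by binding RNAs and proteins. Many are spliced and polyadenylated like messenger RNAs, and their levels are usually lower than those of coding genes.

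The 3′ ends come first, since the libraries read the RNA there. Lower case letters give the last 50 exonic bases of the transcript with the most counts, read 5′ to 3′ on its own strand from the GRCh38 genome, and capitals mark the poly(A) signals AATAAA and ATTAAA. They are shown for 6 of the antisense genes with the highest levels that carry a signal, followed by 2 that carry none.
SNTG2-AS1 (chr2:949627-949676, minus strand): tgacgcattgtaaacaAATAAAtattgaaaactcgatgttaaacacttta
PRKAG2-AS1 (chr7:151879180-151879229, plus strand): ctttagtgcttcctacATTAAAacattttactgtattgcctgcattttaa
PIK3CD-AS2 (chr1:9672405-9672454, minus strand): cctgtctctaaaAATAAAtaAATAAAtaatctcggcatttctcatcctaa
FAM131B-AS2 (chr7:143379683-143379732, minus strand): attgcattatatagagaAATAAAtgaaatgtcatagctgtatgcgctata
OIP5-AS1 (chr15:41306490-41306539, plus strand): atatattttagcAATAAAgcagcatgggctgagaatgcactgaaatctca
DSP-AS1 (chr6:7540451-7540500, minus strand): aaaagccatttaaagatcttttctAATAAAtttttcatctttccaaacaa
STAG2-AS1 (chrX:123959233-123959282, minus strand): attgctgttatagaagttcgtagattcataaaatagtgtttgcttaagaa
MNX1-AS1 (chr7:157016377-157016426, plus strand): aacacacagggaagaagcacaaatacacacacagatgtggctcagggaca

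The starts are shown because the study mapped i-motifs (iMs), structures of C-rich DNA, and G-quadruplexes (G4s), their G-rich counterparts, at promoters. Capitals mark the runs of at least 3 C or 3 G of a putative iM- or G4-forming sequence with 4 such runs and loops of 0 to 7 bases, read on the strand of the antisense transcript. A C-run sequence on one strand is a G-run sequence on the other, so each stretch could form either structure.
PIK3CD-AS2 (chr1:9687580-9687602, minus strand): CCCCCggCCCCgCCCCCacgCCC
FAM131B-AS2 (chr7:143381012-143381030, minus strand): CCCCCtCCCCgCCCgaCCC
PRKAG2-AS1 (chr7:151877467-151877493, plus strand): CCCgctCCCCgtcgCCCCacgccgCCC
ASH1L-AS1 (chr1:155562005-155562029, plus strand): CCCCCtCCCtgctctCCCCtCCCCC
SNTG2-AS1 (chr2:950775-950793, minus strand): GGGcgaGGGaGGGGccGGG
DSP-AS1 (chr6:7541424-7541442, minus strand): GGGcGGGGcGGGGGcGGGG
MNX1-AS1 (chr7:157010725-157010747, plus strand): GGGGGcccGGGGaGGGccgcGGG

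The 3 libraries held 6262175 to 8521624 counts on transcripts. A count of 0 allows up to 3 counts, which equal 0.352 to 0.479 counts per 1000000, and these limits cover counting error only. Replicate 3 stood apart, with 25.8% of its counts on the mitochondrial genome against 9.59% and 5.70% in the other replicates. Of the markers fixed for the line, INA, LIN28B and PAX2 had at least 42 counts in every replicate and KRT8 at least 8, VIM had 0, 6 and 5 counts, and NEFM, NEFL and KRT18 had none, although the 3′ ends of VIM, NEFM and KRT18 are shared between listed transcripts. The 7 markers of blood, liver and adipocytes had no count, although none of their ends lies wholly in a single listed transcript, whereas the fibroblast collagen genes had 632 to 1129 counts for COL1A1 and 22 to 100 for COL3A1.

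A gene was called detected when it had at least 4 counts, more than a count of 0 allows, in every replicate. By this rule 392 antisense genes, 21.6% of the 1814, were detected, 838 had no count in any replicate, and 584 lay between. The share was 6.83% among the 2256 intergenic lncRNA genes named LINC, 11.9% among all lncRNA genes that are not antisense by this rule, 39.5% among protein-coding genes and 19.8% among all genes. The antisense share thus lay between those of LINC and protein-coding genes and near that of all genes. At the threshold, the 57 antisense genes whose lowest count was 4 or 5 had a median level of 1.40 TPM (counts divided by transcript length and scaled to a sum of 1000000 per library), and the 100 whose lowest count was 2 or 3 had a median of 0.751.

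Detected antisense genes were present at low levels. Their median was 3.91 TPM, with quartiles at 1.64 and 9.48, against 3.44 for detected LINC genes and 9.77 for detected protein-coding genes. At least 10 TPM was reached by 94 of them and at least 100 TPM by 8. The antisense genes together held 0.439%, 0.435% and 0.482% of the counts in the 3 replicates, or 0.452% ± 0.0261, whereas the share of the LINC genes was 0.117%, 0.113% and 0.272%. With mitochondrial genes left out, the antisense genes held 0.618%, 0.590% and 0.839% of the TPM and the LINC genes 0.167%, 0.158% and 0.346%, so both shares were then highest in replicate 3, the library with 25.8% mitochondrial counts. The 10 antisense genes with the highest levels made up 27.1% of the summed antisense TPM and the top 50 made up 60.7%.

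The 15 detected antisense genes with the highest mean level were led by STAG2-AS1, SNTG2-AS1, PRKAG2-AS1, PIK3CD-AS2 and URB1-AS1. STAG2-AS1 lies on chromosome X from 123959233 to 123961341 on the minus strand, across the start of the cohesin subunit gene STAG2. It had 175, 184 and 248 TPM, a mean of 202 ± 40.0, from 259, 230 and 540 counts on a single listed transcript of 326 bases.

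SNTG2-AS1, opposite the syntrophin gene SNTG2, had 130, 101 and 288 TPM, and its mean of 173 ± 101 rested on replicate 3. PRKAG2-AS1, whose annotated gene span crosses the start of the gene of a regulatory subunit of AMP-activated kinase, had 158, 177 and 123 TPM (153 ± 27.2). PIK3CD-AS2, inside the gene of the catalytic delta subunit of phosphoinositide 3-kinase, had 140, 144 and 138 TPM (141 ± 3.00). The replicates of PIK3CD-AS2 thus lay close together, and those of SNTG2-AS1 far apart. URB1-AS1, divergent from the ribosome biogenesis gene URB1, had 134, 145 and 136 TPM (139 ± 5.65).

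ECI1-AS1 lies inside the gene of a mitochondrial enoyl-CoA isomerase and had 142 and 148 TPM in replicates 1 and 2 and 58.8 in replicate 3. FAM131B-AS2 had 108, 132 and 84.0 TPM. Lower in the order came OIP5-AS1, DSP-AS1, RFX5-AS1, MNX1-AS1, SVIL-AS1, ASH1L-AS1 and TRIM52-AS1, with means from 101 TPM for OIP5-AS1 to 72.0 for TRIM52-AS1. In the order of the 15 means, the ranges of each gene and the next overlapped, and no gene stood above the next in every replicate, so neighbours do not differ beyond their spread.

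**Figure D1:**
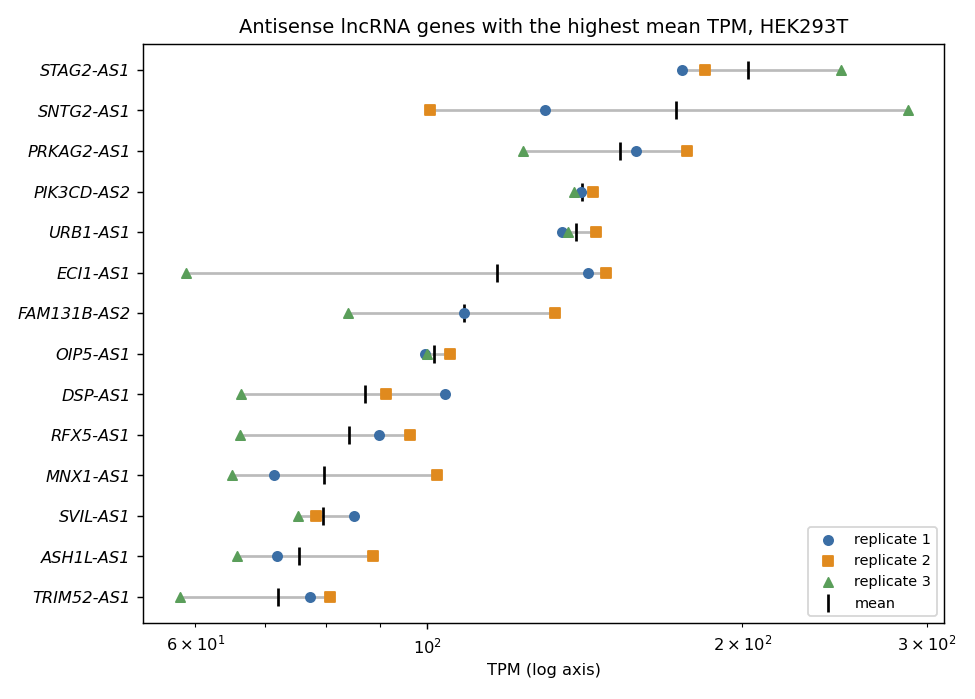
TPM (log axis) of 14 of the 15 antisense lncRNA genes with the highest mean TPM, with 1 point per replicate, a grey line for the range and a black tick for the mean of the 3 replicates. Means fall from 202 TPM for STAG2-AS1 to 72.0 for TRIM52-AS1, and replicate 3 is far above the others for SNTG2-AS1 and far below for ECI1-AS1.

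OIP5-AS1, also known as Cyrano and conserved among vertebrates, had the most counts of any antisense gene, with 2974, 2691 and 3529. Its level was 99.4, 105 and 99.8 TPM (101 ± 3.12), and 91.0% of the counts fell on a transcript of 8829 bases. STAG2-AS1 had fewer counts but a higher TPM, since its transcript is 326 bases long and TPM divides by length although each 3′ library reads a transcript at its end only. The order of the antisense genes by TPM is thus not their order by reads.

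Features that the choice of the 15 did not use were set beside all detected antisense genes. The final 300 exonic bases of the canonical transcript lay to at least 90% in a single listed transcript for 11 of the 15 and 287 of the 392. Here and below, bases that no listed transcript covers are counted with those in a single transcript. The counted transcript carried a poly(A) signal in 10 of the 15, beside 52.3% of the 392, and a run sequence at its start in 8, beside 32.9%. Divergent or head-to-head arrangements made up 10 of the 15, and 19 and 175 of the 385 detected genes with a partner. For 6 of the 15 the partner was not detected, as for 178 of the 385. Among these 6, the ends of STAG2, SNTG2, MNX1 and SVIL are wholly shared between listed transcripts. FAM131B had no count in any replicate, and its end lies to 0.333% in a single transcript. OIP5, a centromere factor gene, had 0, 0 and 2 counts, and its end is wholly covered by exons on the opposite strand.

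The arrangement of the pair, taken from the annotated spans of both whole genes, went along with detection. A counted transcript can lie otherwise. Those with the most counts in PRKAG2-AS1 and OIP5-AS1 do not reach the span of the partner, although both genes overlap it. Antisense genes that run divergently from the partner, with starts within 1000 bases and no overlap, were detected in 19 of 43 cases (44.2%), and those that overlap it head to head in 175 of 563 (31.1%). Of the 96 that contain the whole partner on the opposite strand 36 were detected (37.5%), and of the 244 that overlap it tail to tail 57 (23.4%). The most common arrangement, an antisense gene lying inside its partner, had the lowest share of these, with 95 of 814 (11.7%). Of the 22 that lay apart from the partner 1 was detected, FOXD2-AS1, and the 9 on the same strand or another chromosome than the named gene held 1, FAM131B-AS2.

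The level of the detected genes did not follow the same order. Medians were 4.69 TPM for divergent, 4.10 for head-to-head, 2.48 for tail-to-tail and 4.61 for inside antisense genes. For those that contain the partner the median was 3.43 TPM. Antisense genes were detected in 207 of 815 pairs with a detected partner (25.4%) and in 178 of 978 pairs whose partner was not detected (18.2%). This gap was seen for divergent pairs, at 61.1% of 18 against 32% of 25. Antisense genes that contain the partner showed it at 56.7% of 30 against 28.8% of 66. It was also seen for head-to-head pairs, at 36% against 26.7%, and for inside pairs, at 14.6% against 9.07%. Tail-to-tail pairs showed none, at 23.4% in both cases.

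**Figure D2:**
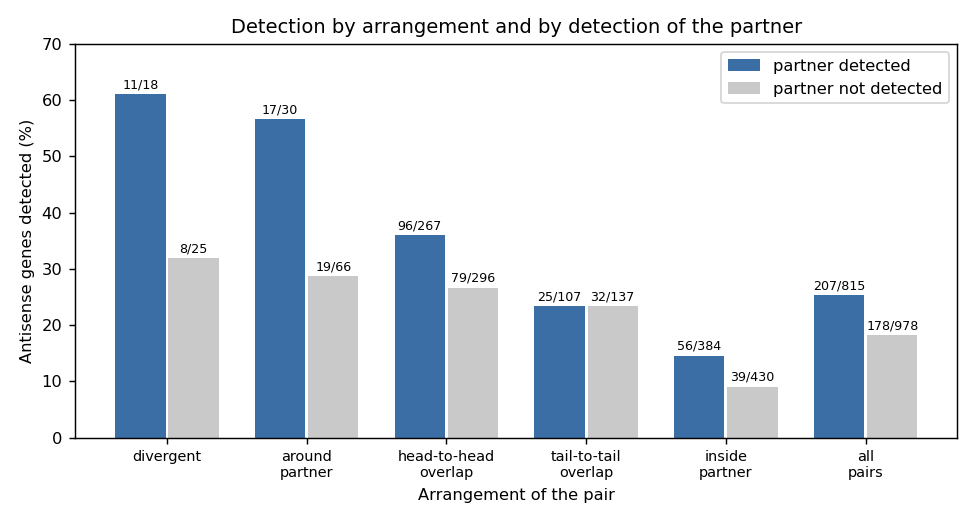
Percent of antisense genes detected (at least 4 counts in every replicate) by arrangement of the pair, for pairs with a detected partner (blue) and without (grey), with the number detected over the number of pairs above each bar. The share falls from 61.1% for divergent pairs with a detected partner to 9.07% for antisense genes inside a partner that was not detected.

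The arrangements also differed in base composition. From 250 bases before to 50 after the canonical start, the median GC content was 69.3% for divergent, 61.7% for head-to-head and 48.0% for inside antisense genes, and a run sequence was present in 44.2%, 32% and 15.7% of them. Detected antisense genes had a median GC content of 61.8% in this window and those not detected 51.8%. A run sequence was present at 413 of the 1814 antisense starts (22.8%), at 33.2% of the detected and at 19.9% of those not detected, against 10.4% of LINC genes, 36% of protein-coding genes and 18.3% of all genes. Among detected genes the share was 19.5% for LINC genes, 40.2% for protein-coding genes and 31.6% for all genes, so that of the detected antisense genes lay near that of all detected genes. On the transcript's own strand C runs were found at 22.2% of the detected antisense starts and G runs at 14.8%, where detected protein-coding genes had 21.9% and 23.0%. These are matches of letters, and the part of GC content in them was not tested.

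The poly(A) signals AATAAA or ATTAAA were searched on the sense strand of the last 50 exonic bases. They were present at 46.2% of the antisense genes, 49.5% of those detected and 45.3% of those not detected. The shares were 57.0% for LINC genes, 77.7% for protein-coding genes and 40.5% for all genes. The antisense shares, detected or not, thus lay below that of the protein-coding genes. Single-exon genes made up 11.5% of the detected antisense genes and 2.81% of the others. A small RNA gene on the same strand lay inside 16 antisense genes, of which 6 were detected (37.5%), against 21.5% of those without one.

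Most of the antisense genes overlap the partner on the opposite strand, and the strand setting of the counting is not given in the sources used here, so the ends were compared by what faces them. Of 1375 antisense genes with no exon of another gene opposite the last 300 exonic bases, 332 were detected (24.1%), as were 50 of 332 with 1 to 89% covered (15.1%) and 10 of 107 with at least 90% covered (9.35%). With at least 90% of the end in a single listed transcript, the shares were 26.3%, 14.1% and 10.6% for antisense genes and 56.0%, 62.7% and 49.1% for protein-coding genes. Fully covered ends still had counts in some cases. SREBF2-AS1 had 503, 412 and 513 counts opposite CCDC134 with 149, 110 and 159, although each end is fully covered by the other gene, and IRF1-AS1 had 5, 5 and 5 counts opposite IRF1, an interferon response factor gene, with 50, 34 and 40. How far reads of the opposite strand entered these counts was not tested.

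Ends shared between listed transcripts went along with fewer calls as well, more so in the partners. Among antisense genes, 1237 had at least 90% of the end in a single listed transcript and 23.2% of these were detected, against 17.7% of the 362 with under 10%. Among the partners the shares were 69.4% of 575 and 30.3% of 970. The part of shared ends in the values of partners with few or no counts was not tested.

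The antisense gene was usually lower than its partner. In 993 pairs at least 1 gene was detected; the antisense gene was higher in every replicate in 237 (23.9%), the partner was higher in 699, and 57 were mixed. The median log2 ratio of antisense to partner TPM, each with 0.1 added, was -3.51. In the 207 pairs with both detected, the antisense gene was higher in 65 (31.4%), the partner in 118, and the median log2 ratio was -1.42, -1.36 and -0.64 in the 3 replicates. With at least 50% of the partner's end in a single transcript the antisense gene was higher in 30 of 119 pairs (25.2%), with a median log2 ratio of -2.04, and otherwise in 35 of 88 (39.8%), with -0.51.

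Across the 207 pairs the levels of antisense gene and partner were not related in rank, with a Spearman coefficient of -0.010, -0.029 and -0.039 in the 3 replicates and a mean Pearson coefficient of -0.015 on log2(TPM + 0.1). In the 119 pairs with the partner's end mostly in a single transcript the mean Spearman coefficient was 0.050. Over all 1793 pairs, most of them with low or no counts, it was 0.193. The points are pairs from the same libraries, some of them sharing a partner, and no p is given.

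**Figure D3:**
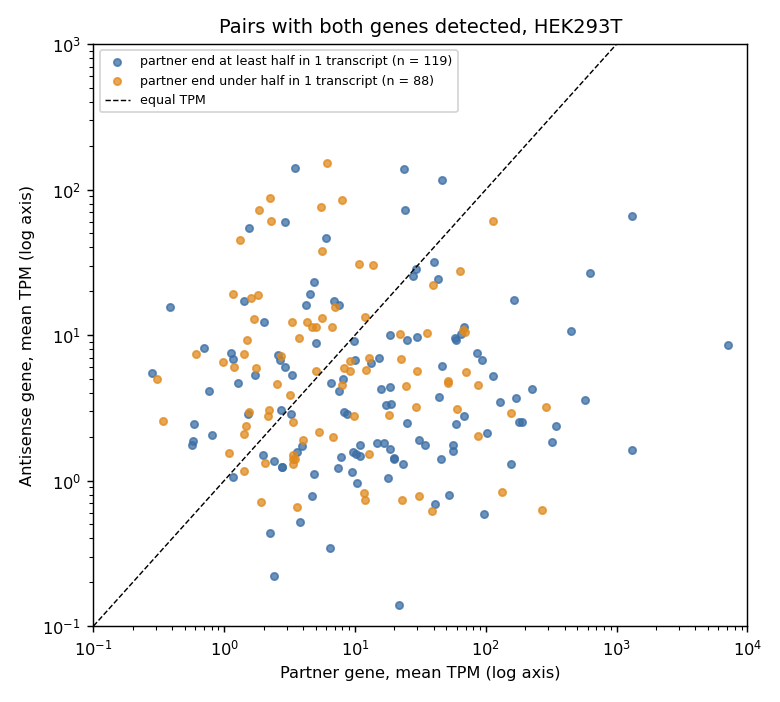
Mean TPM of the antisense gene against mean TPM of its partner (both log axes) for the 207 pairs with both genes detected, coloured by whether at least 50% of the partner's 3′ end lies in a single listed transcript (blue, n = 119) or not (orange, n = 88). Points below the dashed line of equal TPM are pairs with a higher partner, and no trend is visible.

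Among pairs with both genes detected, those with the highest ratio of TPM are described first. Each is given with its log2 ratio in counts per 1000000, without division by length. Pairs whose partner was not detected were left out of this order, and some had higher ratios, such as FAM131B-AS2 at 10.1. FAM131B had no count in any replicate, so the value of 10.1 depends on the amount added to each TPM. Both genes also lie on the minus strand, so FAM131B-AS2 is not antisense to FAM131B by the annotation. DSP-AS1 had 104, 91.3 and 66.4 TPM, and DSP, the gene of desmoplakin at cell junctions, had 2.41, 3.28 and 1.04, which gives a log2 ratio of 5.33 ± 0.558, and of 1.95 without division by length. PIK3CD-AS2 stood at 5.32 ± 0.323 over PIK3CD with 3.00, 4.56 and 2.91 TPM, from 7, 9 and 10 counts, and at 6.12 without division by length. In both pairs the antisense gene was higher in every replicate, and 47.3% of the end of DSP and 69.3% of that of PIK3CD lie in a single transcript. Exons on the opposite strand cover 63% of the end of PIK3CD and 0% of that of DSP.

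The ends of COA6, ENTPD1 and SEPSECS, in contrast, are not shared between listed transcripts at any base. COA6-AS1 had 43.3, 45.8 and 74.1 TPM over 2.04, 1.81 and 0.780 for COA6, which serves the assembly of cytochrome c oxidase. ENTPD1-AS1 had 17.7, 13.9 and 15.4 TPM over 0.370, 0.564 and 0.216 for the ectonucleotidase gene ENTPD1. SEPSECS-AS1 had 49.4, 59.3 and 69.8 TPM over 2.12, 2.61 and 4.09 for SEPSECS, which makes selenocysteine on its tRNA. Without division by length the log2 ratios were 3.54 for COA6-AS1, 2.45 for ENTPD1-AS1 and 0.90 for SEPSECS-AS1, against 5.11, 5.09 and 4.33 in TPM.

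The others with a high log2 ratio of TPM were PKD1-AS1 at 4.92, TIAM1-AS1 at 4.84, PRKAG2-AS1 at 4.62 and DPH1-AS1 at 3.95, which became 2.63, 3.86, 4.57 and 1.47 without division by length. The end of PKD1 lies to 0.667% in a single transcript and those of TIAM1, PRKAG2 and DPH1 to 0%. Exons on the opposite strand cover 100% of the end of PKD1, 8.67% of that of DPH1 and 0% of those of TIAM1 and PRKAG2. The value of PKD1-AS1 is also uncertain because PKD1 has near-identical pseudogene copies.

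The lowest ratios among pairs with both genes detected belonged to partners that HEK293T cells express strongly. SLC25A5, the gene of an ADP/ATP carrier of mitochondria, had 7829, 8633 and 4950 TPM, and SLC25A5-AS1 had 5.47, 8.86 and 11.5 (log2 ratio -9.70 ± 0.876). PRDX6, the gene of a peroxiredoxin, had 1456, 1613 and 845 TPM against 1.28, 2.36 and 1.21 for PRDX6-AS1 (-9.58 ± 0.402). NR2F1-AS1 at -8.73, IGF2BP2-AS1 and EIF1B-AS1, both at -7.39, followed, opposite a nuclear receptor gene, an oncofetal RNA-binding protein gene and a translation initiation factor gene. The ends of SLC25A5-AS1 and PRDX6-AS1 are wholly shared between listed transcripts. Those of NR2F1-AS1 and EIF1B-AS1 are not shared, and that of IGF2BP2-AS1 lies to 61.3% in a single transcript. The part of shared antisense ends in these ratios was not tested.

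**Figure D4:**
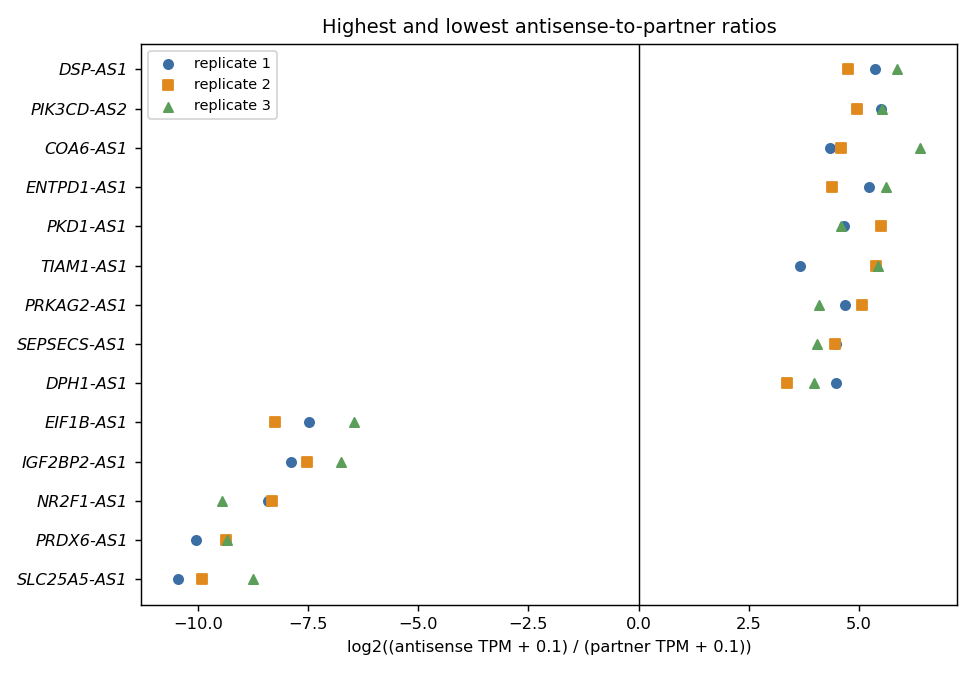
Log2 ratio of antisense to partner TPM, each with 0.1 added, in each replicate for 9 of the 10 pairs with the highest and the 5 with the lowest mean ratio among pairs with both genes detected. The 3 replicates keep 1 side of the line at 0 in every pair shown, from a mean of 5.33 for DSP-AS1 to -9.70 for SLC25A5-AS1.

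Among antisense genes that have been studied elsewhere, 25 of 30 listed names met the rule, 18 were detected and 2, FOXD3-AS1 and DSCAM-AS1, had no count. The ends of FOXD3-AS1 and DSCAM-AS1 are wholly shared between listed transcripts. CDKN2B-AS1, known as ANRIL and linked to Polycomb silencing of the cell cycle inhibitors beside it, had 27.3, 31.4 and 18.1 TPM (25.6 ± 6.79). CDKN2B, a cyclin-dependent kinase inhibitor gene that lies inside it, had 29.7, 30.3 and 22.6 TPM, so the difference of the pair was smaller than its own SD (log2 ratio -0.13 ± 0.186). SOX21-AS1 had 33.5, 34.4 and 27.2 TPM beside 42.7, 52.0 and 26.2 for SOX21, with a log2 ratio of -0.29 ± 0.327.

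TMPO-AS1 was far below its partner, with 25.6, 29.8 and 24.9 TPM against 694, 741 and 453 for TMPO, the gene of a nuclear lamina protein. NUTM2A-AS1 had 14.0, 12.6 and 8.64 TPM, while NUTM2A, a member of a family of near-identical copies, had no count. The annotated end of NUTM2A is not shared between listed transcripts. PSMA3-AS1 at 10.3 ± 2.38 TPM, GAS5-AS1 at 6.94 ± 2.09 and LOXL1-AS1 at 5.24 ± 1.81 lay near or above the median of the detected antisense genes. Of the other well-known names, FGD5-AS1 had 1, 0 and 1 counts, SBF2-AS1 0, 0 and 3, and MAPKAPK5-AS1 and AFAP1-AS1 0, 0 and 4 each. The ends of SBF2-AS1 and MAPKAPK5-AS1 are wholly shared between listed transcripts, and those of FGD5-AS1 and AFAP1-AS1 are not. Exons on the opposite strand cover 55.7% of the end of AFAP1-AS1 and 0% of that of FGD5-AS1.

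Antisense genes named after developmental transcription factors were detected in 22 of 59 cases (37.3%), beside 21.6% for all antisense genes, with a median of 5.87 TPM against 3.91. For the partners that are zinc finger or chromatin genes the count was 18 of 64 (28.1%), for mitochondrial and metabolic genes 6 of 18 (33.3%), for vesicle and cytoskeleton genes 10 of 47 (21.3%), and for channels, receptors and transporters of the membrane 13 of 87 (14.9%), of which 50 had no count at all. The lists were written from gene name stems, and nothing particular to any of them is drawn from these counts.

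Within the HOX clusters, which pattern the body axis, HOXB-AS4 had 35.4, 60.4 and 26.8 TPM (40.9 ± 17.4) and HOXD-AS2 29.8, 39.3 and 26.2 (31.8 ± 6.77). HOXA-AS2 had 23.0, 13.3 and 29.8 TPM, and HOXC-AS2, HOXB-AS1 and HOXA-AS3 had means of 5.19, 4.57 and 3.35. HOXB-AS1 rested on few counts, with 5, 9 and 40 in the 3 replicates. Not detected were HOXC-AS3 with 2, 6 and 14 counts and HOXC-AS1 with 3, 1 and 0, whereas HOXB-AS2 and HOXB-AS3 had none. At least 1 antisense gene was thus detected in each of the 4 HOX clusters. The ends of HOXB-AS4 and HOXD-AS2 lie to 90.3% and 100% in a single transcript. Those of HOXA-AS2, HOXA-AS3 and HOXC-AS2 are wholly shared between listed transcripts, and that of HOXB-AS1 lies to 0.667% in a single transcript. Exons on the opposite strand cover 94.3% of the end of HOXA-AS3, 77% of that of HOXB-AS1 and 18.3% of that of HOXA-AS2. The calls in the HOXA and HOXC clusters thus rest on shared ends.

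Outside the HOX clusters, GATA2-AS1, opposite the gene of a haematopoietic transcription factor, had 27.8, 31 and 24.2 TPM (27.7 ± 3.41). FOXN3-AS1 had 23.5, 23.0 and 19.9 TPM, LHX2-AS1 14.6, 13.4 and 10.3, and ZFHX2-AS1 12.8, 8.41 and 13.0. LHX2 itself had no count, as did IRX4 beside IRX4-AS1 at 7.20 ± 3.65 TPM, and the ends of LHX2 and IRX4 are wholly shared between listed transcripts. At the other end, NR2F1-AS1 had 0.813, 0.954 and 0.129 TPM and DLX6-AS1 0.129, 0.153 and 0.137. DLX6-AS1 had 9, 9 and 14 counts on a transcript of 15364 bases, and DLX6, a homeobox gene of forebrain and limb, had 20.3, 25.9 and 19.1 TPM.

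**Figure D5:**
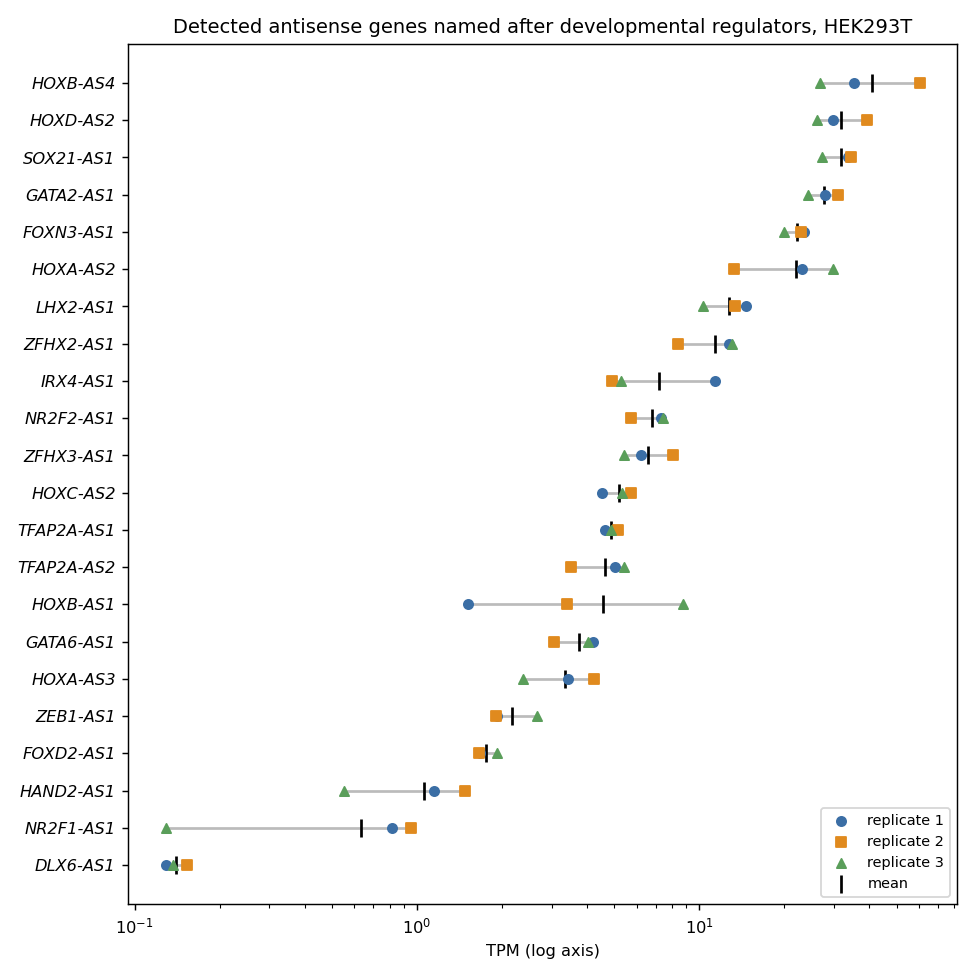
TPM (log axis) of the 22 detected antisense lncRNA genes named after developmental regulators, with 1 point per replicate, a grey line for the range and a black tick for the mean. Means run from 40.9 TPM for HOXB-AS4 to 0.140 for DLX6-AS1, and HOXB-AS1 and NR2F1-AS1 have the widest ranges on this axis.

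Only 4 partners had more than 1 detected antisense gene. At MNX1, a homeobox gene of motor neurons and pancreas with 1, 5 and 1 counts, MNX1-AS1 had 71.3, 102 and 65.1 TPM and MNX1-AS2 32.4, 19.5 and 36.5, so both lay above it; the end of MNX1 is wholly shared between listed transcripts. At LCMT1, a methyltransferase gene of protein phosphatase 2A, the divergent LCMT1-AS1 had 13.4 ± 3.16 TPM and LCMT1-AS2, inside the gene, 0.733 ± 0.272. TFAP2A-AS1 and TFAP2A-AS2 had nearly equal means of 4.87 and 4.65 TPM beside 51.2 for TFAP2A, a transcription factor gene of neural crest. BRWD1-AS1 and BRWD1-AS2 had 2.01 and 4.52 TPM beside 86.9 for BRWD1.

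Replicate 3 was compared with the mean of the other replicates after leaving out mitochondrial genes, over genes with enough counts (50 or more). Of 94 antisense genes, 8 differed over 2-fold (8.51%), against 2.79% of 4691 protein-coding genes and 3.57% of 28 LINC genes. The LINC share is 1 gene, and the classes were not matched for counts above 50. The median log2 difference was 0.21 for antisense, -0.03 for protein-coding and 0.43 for LINC genes, so the shift of the median was not particular to antisense genes. SNTG2-AS1 was higher by 1.85 on the log2 scale, COA6-AS1 by 1.27, SLC25A5-AS1 by 1.22, ZBED3-AS1 by 1.19, CAPN1-AS1 by 1.10, ZNF516-AS1 by 1.09 and STAG2-AS1 by 1.00, and CIRBP-AS1 had a difference of -1.60 with 258, 213 and 85 counts. These 8 were chosen after their values were seen. Replicate 3 is also the library with the most mitochondrial counts, and the part of that in these differences was not tested.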

How the data were processed

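Per the labels and the methods of the study, QuantSeq 3′ mRNA-seq libraries were prepared from total RNA of 3 biological replicates of HEK293T cells. The submitters' processing notes name Trimmomatic 0.38.0, HISAT2 2.2.1, featureCounts 2.2.1 and the genome build hg38. The strand setting of the counting and the treatment of reads shared by transcripts are not given in the sources used here. For each transcript the authors deposited its raw count of reads, its length in bases and its TPM. To make the TPM, the authors normalized the count to transcript length and to a sum of 1000000 per library. As reads come from 3′ ends, division by length raises short transcripts over long ones.

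Transcript identifiers without version were matched to GENCODE v44 on GRCh38, the same build, and 223558 of 247541 matched, in 61193 genes. Counts and TPM were summed per gene. Members and gene lists were chosen with earlier results of these data known. A gene with at least 4 counts in every replicate was called detected. Totals of 6262175 to 8521624 counts set the precision. Named genes were the 15 with the highest mean TPM, 25 well-studied ones, the 10 pairs with the highest and the 5 with the lowest ratio among pairs with both genes detected, and the detected genes of the developmental list. The developmental list was given by stems of partner symbols (HOX, SOX, FOX, GATA and others), and the other lists likewise. Ratios were taken as log2 of TPM with a pseudocount of 0.1. Where several genes carry a partner's symbol, the nearest was used. An end is the final 300 exonic bases of a gene's canonical transcript, and starts run from 250 bases before to 50 after its first base. End bases covered by no listed transcript were counted with those in a single one. The canonical transcript was absent from the deposited tables for 59 of the antisense genes, 23 of them detected. Sequences were read from GRCh38 in the transcript with the most counts. The alternatives were other detection rules, pseudocounts, counts per 1000000 in place of TPM, mitochondrial genes left out, other motif rules and each replicate left out in turn. The scripts were tested on simulated data and used Python 3.11.15, numpy 2.4.6, pandas 2.3.3, scipy 1.17.1 and matplotlib 3.10.9. The 10 genes with a symbol ending in -AS and digits but another biotype were left out. Of the genes that met the rule for naming, 1 is not reported here.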

Additional observations from a re-analysis of the deposited data

Results flagged for a closer look

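A signal was seen outside the genes of the report, in lncRNA genes whose symbol ends in -AS without digits. Of 25 such genes 7 had at least 4 counts in every replicate. HOXA10-AS had 38, 42.0 and 23.5 TPM, HOXC13-AS 21.1, 23.5 and 24.1, and PINK1-AS 3.72, 5.99 and 3.17. PTENP1-AS, WT1-AS, BDNF-AS and BACE1-AS had means of 2.42, 1.97, 1.77 and 1.26 TPM.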

How the results depend on the processing

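The number of detected antisense genes was 392 and became 976 with 1 count in any replicate, 262 with at least 10 counts in every replicate and 418 with a mean TPM of at least 1, and lay between 404 and 442 with each replicate left out. Their share of TPM was 0.482%, 0.683% without mitochondrial genes, 0.452% in counts, and 0.473% to 0.488% with each replicate left out. Their median level was 3.91 TPM, 5.59 without mitochondrial genes, 0.0455 without a filter, and 3.31 to 3.75 with each replicate left out. Pairs with the antisense gene higher numbered 237, 59 with at least 50% of the partner's end in a single transcript, 65 with both genes detected, and 249 to 260 with each replicate left out. The median log2 ratio of -3.51 became -1.72 with a pseudocount of 1, -5.39 with 0.01, -4.48 in counts per 1000000, -4.65 with the partner's end in a single transcript, -1.11 with both genes detected and -1.63 without a filter, and lay between -3.62 and -3.39 with each replicate left out. The Spearman coefficient of -0.026 became 0.193 over all pairs and ran from -0.031 to 0.034 with each replicate left out, turning positive without replicate 2. Leaving out each replicate gave 46.5% to 48.8% detected for divergent, 32.1% to 34.6% for head-to-head and 12% to 13.9% for inside antisense genes, 9.35% to 11.2% for ends covered on the opposite strand and 37.3% to 40.7% for the developmental list. Run sequences were at 34.5% of antisense starts with loops up to 12 bases and 56.8% within 1000 bases on each side, and AATAAA alone at 36.1% of ends. With the transcript with the most counts, a choice made after seeing the data, the shares were 22.7% and 47.5%. The cause of these shifts was not tested beyond the change of rule itself. Leaving out mitochondrial genes moved 47 of the mean TPM values of named genes by more than the spread between replicates. Leaving out 1 of 3 replicates shifts a mean by less than that SD whatever the values, so this rule cannot test it. The mean of SNTG2-AS1, for example, went from 173 to 115 TPM without replicate 3. Of the 15 highest and lowest log2 ratios, a pseudocount of 1 moved 7 and counts per 1000000 moved 11, and none of these 15 changed sign. No paired analysis was possible because HEK293T cells were measured under 1 condition. Depth limits antisense genes with under 4 counts, for which absence cannot be told from low levels. Ends shared between listed transcripts also went along with fewer calls, and their part in missing counts was not tested.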
